A study of Mus musculus with 12 samples.

Results

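The 48 genes described here encode the machinery that copies DNA in S phase, together with the factors that switch it on. They were taken by symbol, from origin licensing to the copying of DNA methylation. The rule itself uses no measured value, but the list was chosen with earlier results of these data known. Each of the 48 symbols lay on 1 row in each of the 3 deposited tables, which hold 23735 gene models. The cells were hair follicle stem cells, the slow-cycling cells of the follicle's bulge that rebuild the hair in each cycle, sorted by FACS from mouse back skin. The study asked, by its design, how these cells differ when the transcription factor Foxc1 is removed.

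The 12 mRNA-seq libraries fall into 7 groups. In anagen, the growth phase, 2 libraries came from FOXC1-Sox9CreER-heterozygous males (Het) and 2 from FOXC1-Sox9CreER-iKO males (iKO), all at postnatal day 30 and of a Black Swiss and C57BL/6 mix. In the second telogen, a resting phase, Black Swiss WT mice gave 2 libraries and Black Swiss FOXC1-K14Cre-cKO mice (cKO) gave 2. In each of these groups the male was 42 and the female 46 days old. The remaining second telogen group holds 2 libraries of FOXC1-Sox9CreER-iKO males, aged 60 days and of the same mix as the anagen mice. Shh-Het females of the Agouti strain gave 1 library in first telogen at about day 23 and 1 in anagen substage II at about day 26, and the titles of these libraries say WT. The labels of the replicated groups give 1 mouse per library. All Sox9CreER mice, the Het controls included, received tamoxifen by injection into the abdomen, which moves Cre into the nucleus and also switches on a YFP reporter. The anagen control therefore carries the driver, the drug and a heterozygous Foxc1 genotype, while the telogen control is wild type. K14Cre acts in keratin 14-expressing epithelial cells and is not timed by a drug.

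As background, an origin of replication is licensed when the origin recognition complex, with Cdc6 and Cdt1, loads the ring of Mcm2 to Mcm7 onto DNA. Cdc45 and the GINS complex turn that ring into a moving helicase, after which primase and the polymerases copy both strands on the Pcna clamp. Many of these genes are transcribed under E2F factors, which cyclin E with its kinase releases from the Rb proteins, and most hair follicle stem cells rest outside S phase during telogen.

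Levels are FPKM, fragments per kilobase of transcript per unit of sequenced fragments, which are scaled by transcript length, so genes can be set beside each other. Each group has 1 pooled FPKM per gene in the authors' deposited tables. That value carries no spread between libraries, and the sequencing depth is unknown. A gene is called here where the authors' q is below 0.05 in their Cuffdiff comparison, which rests on 2 libraries a group. Dividing a log2 fold by its deposited test statistic gave an approximate standard error (SE). The words rose and fell are used for called genes, and every FPKM, fold and q below is from the authors' deposited tables.

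The labels were checked on the targeted gene. Foxc1 was at 23.9 FPKM in anagen Het and 1.40 in anagen iKO cells, and at 26.5 in telogen WT and 1.59 in telogen cKO cells. It was 3.17 in telogen iKO cells against 27.5 in WT cells in the joint table. Of the stem cell markers, Cd34, Itga6, Sox9, Lhx2, Nfatc1 and Lgr5 were at 19.7 FPKM or more in all 7 groups. Krt15 was listed at 0 in 3 groups and Krt5 in 5, beside 3294 to 9222 FPKM in the others, so those entries are not levels and are not used.

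The replication genes as a set were higher without Foxc1 in both hair cycle stages. In anagen 35 of the 48 rose in iKO cells and 0 fell, while 10.3% of all 13716 tested genes were called in either direction with 5.18% higher and 5.08% lower. The median log2 fold of the 48 was 1.12, or 2.18-fold. On the log2(FPKM + 1) scale, which damps genes at low level, their median was 0.98 against -0.02 over all tested genes. In the second telogen 27 of the 47 tested genes rose in cKO cells and 0 fell, where 6.62% of 13551 tested genes passed (3.75% higher, 2.87% lower). There the median log2 fold was 1.11, and on the log2(FPKM + 1) scale it was 0.82 against 0.00 over all tested genes. E2f7 was not tested by the authors in telogen. In the joint table, whose q is adjusted over all its comparisons, 35 genes rose in anagen beside 11.0% of genes called (5.48% higher, 5.53% lower). There 32 rose in telogen beside 12.2% (6.44% higher, 5.76% lower), and 0 fell in either. In both stages 0 genes had a Cuffdiff p below 0.05 in the lower direction before adjustment, and 0 were called lower from a normal p of the statistic. In the higher direction that normal p called fewer genes, 29 in anagen and 18 in telogen. The fold was at least 2 in 28 genes in anagen and in 27 in telogen. For the replicated groups, here and below, the shares over all genes are for the deposited q only. They were not counted for a normal p or for a fold of at least 2. In these sorted populations, more cells in S phase and more RNA per cell cannot be told apart.

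Of the 35 genes that rose in anagen and the 27 that rose in telogen, 26 were called in both. A further 9 were called in anagen alone, namely Gins2, Gins3, Prim1, Pold1, Pcna, Rpa2, E2f7, Ccne1 and Dnmt1. Of these, 8 had a telogen p below 0.05 without passing the q threshold, and E2f7 was not tested. E2f2 was called in telogen alone. The 12 called in neither were Orc6, Gins4, Pole2, Pold2, Rfc1, Rfc2, Rfc3, Rfc4, Rpa1, Rpa3, Dut and Ccne2. Over all tested genes 10.3% were called in anagen and 6.62% in telogen. The share of all genes called in both stages was not counted, so the overlap has no background beside it.

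**Figure D1:**
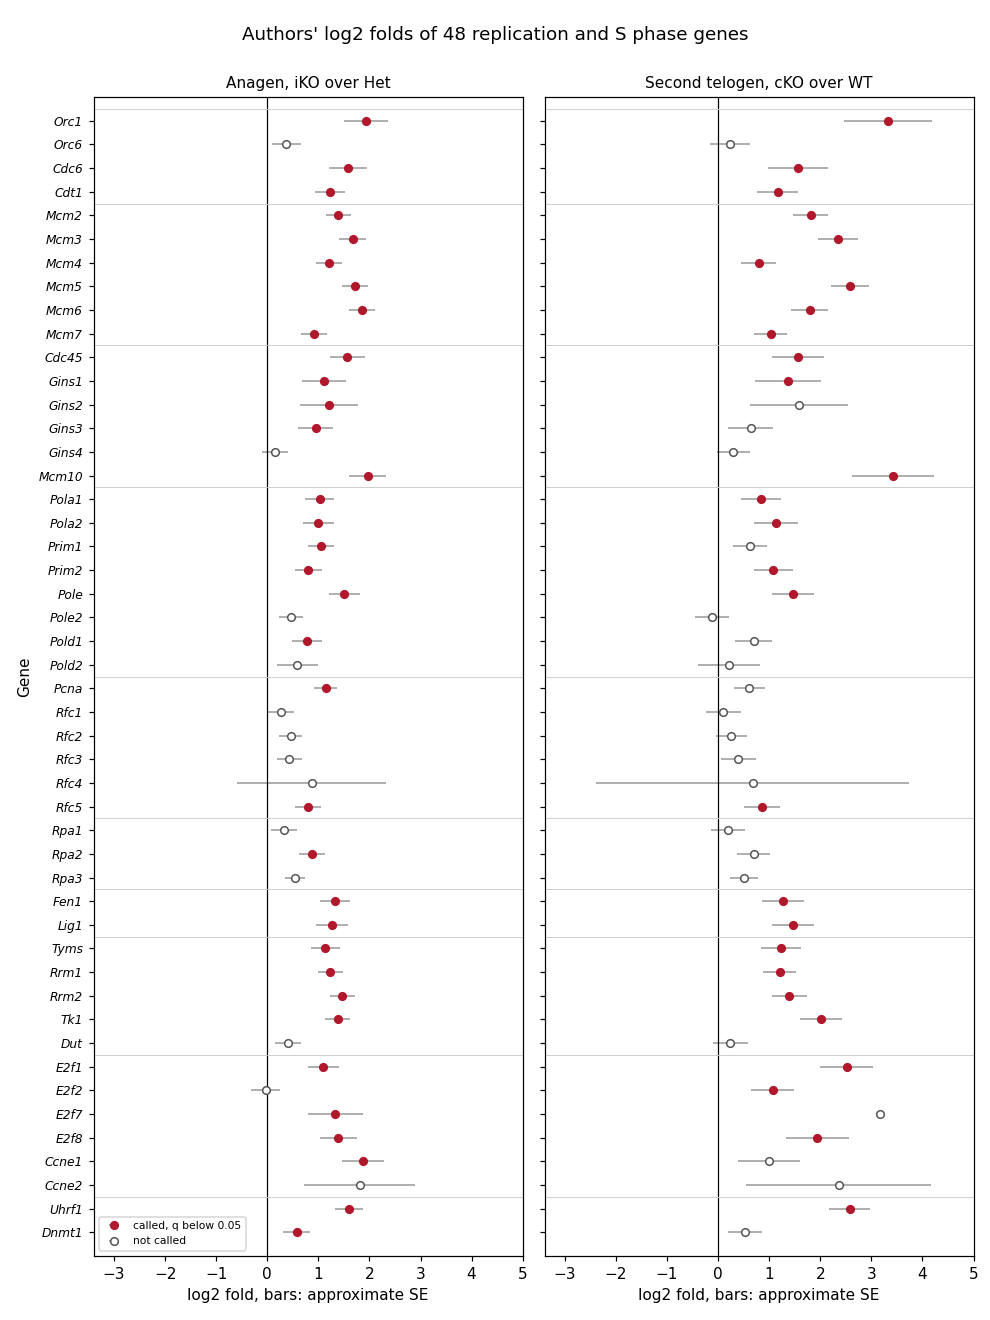
The authors' log2 fold of each of the 48 genes, grouped by role from origin licensing at the top to maintenance methylation at the bottom, for anagen iKO over Het (left) and second telogen cKO over WT (right). Bars are the approximate SE, filled points are called at q below 0.05, and E2f7 in telogen was not tested and has no bar. Filled points lie to the right of 0 in both panels, 35 in anagen and 27 in telogen.

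Promoter sequence was looked at because the genes moved together and E2F sites are a known shared feature of replication genes. RefSeq promoters of build GRCm38.p6, windows from 250 bases before to 50 after the start, were matched by symbol for 40 of the 48 genes. Any of 4 E2F motifs on either strand (TTTGGCGC, TTTCCCGC, TTTCGCGC, TTTGGCGG) lay in the windows of 19 of the 40, or 47.5%. The share was 4.90% among 10055 tested genes with a window and 2.70% among all 27025 genes with one. These motifs share letters, and overlapping matches on both strands were each counted. CCAAT, bound by NF-Y, lay in 65.0% of the 40 against 42.7% of tested genes, and the cell cycle element TTTGAA in 20.0% against 14.2%. A match is a description of letters and no evidence of binding. Below are the 250 bases before the start of 4 genes, read 5′ to 3′ on the gene's strand with E2F matches in capitals. Each had the largest anagen log2 fold of its role group: licensing (Orc1), MCM ring (Mcm6), clamp and loader (Pcna), and E2F and cyclin E (Ccne1). Orc1 and Mcm6 hold matches, and Pcna and Ccne1 hold none of these letters. Matches did not follow the calls by stage. Mcm10 and Rrm2, with no match, rose in both stages, and Gins3 and Dnmt1, with one, were called in anagen alone. The 4 stretches lie at chr4:108579204-108579453 (plus strand), chr1:128359706-128359955 (minus), chr2:132253181-132253430 (minus) and chr7:38107491-38107740 (minus).
Orc1: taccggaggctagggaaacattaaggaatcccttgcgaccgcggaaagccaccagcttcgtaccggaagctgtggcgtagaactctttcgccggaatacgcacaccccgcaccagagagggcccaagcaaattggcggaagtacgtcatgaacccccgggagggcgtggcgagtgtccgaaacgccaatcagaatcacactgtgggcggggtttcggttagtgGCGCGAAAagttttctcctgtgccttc
Mcm6: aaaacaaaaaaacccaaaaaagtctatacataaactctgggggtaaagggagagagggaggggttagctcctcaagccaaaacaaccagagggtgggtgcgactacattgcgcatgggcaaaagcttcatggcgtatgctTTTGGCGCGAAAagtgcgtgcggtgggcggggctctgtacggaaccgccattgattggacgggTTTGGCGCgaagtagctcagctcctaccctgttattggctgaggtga
Pcna: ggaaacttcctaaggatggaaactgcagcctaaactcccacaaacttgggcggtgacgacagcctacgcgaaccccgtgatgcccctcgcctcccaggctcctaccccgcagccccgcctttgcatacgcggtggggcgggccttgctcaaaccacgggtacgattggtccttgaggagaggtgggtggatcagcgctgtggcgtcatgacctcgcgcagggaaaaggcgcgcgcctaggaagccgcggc
Ccne1: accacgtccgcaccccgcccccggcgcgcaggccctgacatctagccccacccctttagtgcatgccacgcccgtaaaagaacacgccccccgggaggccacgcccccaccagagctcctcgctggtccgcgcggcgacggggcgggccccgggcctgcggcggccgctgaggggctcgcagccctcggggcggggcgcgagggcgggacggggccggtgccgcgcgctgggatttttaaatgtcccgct
The Orc1 match lies on the minus strand, from 27 to 20 bases before the start. Mcm6 holds 3 matches, of which the pair farther from the start overlaps on opposite strands. Of the 19 genes with one, 15 rose in anagen and 12 in telogen, with median log2 folds of 1.02 and 1.14. Of the 21 with a window and no match, 15 rose in anagen and 11 in telogen, with median log2 folds of 1.13 and 1.00. No test was made between these sets.

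Origin licensing genes rose in 3 of 4 cases in each stage. Orc1, the regulated ATPase subunit of the origin recognition complex, was at 0.792 FPKM in Het and 3.01 in iKO anagen cells, 3.80-fold higher, with a log2 fold of 1.93 (SE 0.43, q = 0.00106). In telogen it was at 0.112 in WT and 1.13 in cKO cells, 10.1-fold higher, with a log2 fold of 3.33 (SE 0.86, q = 0.0112). The gene was thus near 0 in resting control cells, and its telogen fold has a wide error. Cdc6, which joins the complex to load the ring, went from 1.27 to 3.78 in anagen and from 0.454 to 1.34 in telogen, 2.99-fold and 2.96-fold. Cdt1, its partner, went from 4.22 to 9.86 and from 3.18 to 7.13, 2.34-fold and 2.25-fold. Orc6, another subunit of the complex, was 14.7 and 19.1 in anagen (q = 0.292) and 9.23 and 10.9 in telogen (q = 0.873). It was not called in either stage.

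All 6 genes of the MCM ring, the core of the replicative helicase, rose in both stages. Mcm6 went from 17.9 to 64.7 FPKM in anagen, 3.61-fold, with a log2 fold of 1.85 (SE 0.25). In telogen it went from 7.71 to 26.7, 3.46-fold, with a log2 fold of 1.79 (SE 0.37). Mcm5 went from 13 to 42.9 in anagen, 3.30-fold, and from 2.87 to 17.1 in telogen, 5.95-fold. Both stages gave these subunits the smallest q their table holds, 0.00106 in anagen and 0.00159 in telogen. Mcm3 rose 3.19-fold in anagen (10.7 to 34.3) and 5.10-fold in telogen (2.92 to 14.9), and Mcm2 rose 2.63-fold (13.8 to 36.3) and 3.51-fold (4.92 to 17.3). The smallest changes of the ring were in Mcm4 and Mcm7. Mcm4 rose 2.32-fold (15.7 to 36.4) and 1.73-fold (9.39 to 16.3, q = 0.0236), and Mcm7 1.88-fold (31.0 to 58.5) and 2.04-fold (15 to 30.5). Mcm4 and Mcm7 were also the subunits with the highest level in resting WT cells. The Mcm7 gene holds 3 microRNA genes, which could share its reads.

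Of the 6 genes that activate the helicase, 5 rose in anagen and 3 in telogen. Mcm10, which acts as the ring opens, was the most changed of the 48 in both stages on the authors' log2 scale. It was at 1.63 in Het and 6.40 in iKO anagen cells, 3.92-fold higher (log2 fold 1.97, SE 0.36), and at 0.130 in WT and 1.40 in cKO telogen cells, 10.7-fold higher (log2 fold 3.42, SE 0.80). Cdc45, the helicase partner, went from 4.60 to 13.6 and from 1.90 to 5.62, 2.96-fold and 2.95-fold. The 4 GINS subunits, which form 1 complex, were not called alike. Gins1 rose in both stages, from 4.33 to 9.34 (q = 0.0143) and from 1.76 to 4.55 (q = 0.0499, at the edge of the threshold). Gins2 and Gins3 rose in anagen, 2.31-fold (q = 0.0389) and 1.93-fold (q = 0.00712), and were not called in telogen at 2.99-fold (q = 0.337) and 1.56-fold (q = 0.344). The Gins2 model spans 100210 bases and overlaps Gse1, and its log2 fold in telogen has an SE of 0.96. Gins4 was 20.9 and 23.3 in anagen (q = 0.773) and 16.1 and 19.8 in telogen (q = 0.768), with no call. The level of Gins4 in WT telogen cells was far above that of the other GINS genes, Gins2 at 7.21 being the next.

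Primase and polymerase genes rose in 6 of 8 cases in anagen and 4 of 8 in telogen, mostly by about 2-fold. Pole, the catalytic subunit of the leading-strand polymerase, changed most, from 1.87 to 5.31 in anagen, 2.84-fold (log2 fold 1.51, SE 0.30), and from 1.13 to 3.13 in telogen, 2.76-fold (log2 fold 1.46, SE 0.41). Pola1 and Pola2, subunits of the priming polymerase, rose 2.03-fold and 2.00-fold in anagen, and 1.79-fold (q = 0.0381) and 2.20-fold (q = 0.0112) in telogen. Their primase partner Prim2 rose 1.74-fold and 2.12-fold. Prim1, the catalytic primase, rose in anagen from 17.7 to 36.8, and was 13.6 and 21.0 in telogen without a call (q = 0.167). Pold1, the catalytic subunit of the lagging-strand polymerase, rose in anagen from 6.70 to 11.5 and was 6.05 and 9.80 in telogen (q = 0.0816). The accessory subunits Pole2 and Pold2 were not called. Pole2 was 24.9 and 34.3 in anagen and 14.9 and 13.7 in telogen, the telogen value being the 1 case among the 48 with a smaller knockout value there. Pold2 overlaps Aebp1 in the table's models.

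Of the 6 genes of the clamp and its loader, 2 rose in anagen and 1 in telogen. Pcna, the sliding clamp, was the most highly expressed of the 48 in every group. It went from 117 to 259 FPKM in anagen, 2.21-fold, with a log2 fold of 1.14 (SE 0.22), and was 105 and 161 in telogen, 1.53-fold, with no call (q = 0.120). The genome holds the processed copies Pcna-ps1 and Pcna-ps2, which could share its reads. Rfc5, a subunit of the loader that places the clamp, rose 1.73-fold in anagen (q = 0.00280) and 1.82-fold in telogen (q = 0.0313). The loader genes Rfc1, Rfc2 and Rfc3 were not called in either stage, at 1.20, 1.37 and 1.35-fold in anagen and 1.08, 1.19 and 1.32-fold in telogen. Rfc4 was 13.7 and 25.1 in anagen, but its log2 fold has an SE of 1.46 (q = 0.747). Its model overlaps Eif4a2 and 2 small nucleolar RNA genes.

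RPA coats single-stranded DNA behind the helicase. Rpa2 rose in anagen from 15.7 to 28.7, 1.83-fold (log2 fold 0.87, SE 0.25), and was 11.8 and 19.1 in telogen with no call (q = 0.0951). Rpa1 and Rpa3 were not called, at 1.26 and 1.46-fold in anagen and 1.15 and 1.42-fold in telogen. The enzymes that finish lagging-strand fragments rose in both stages. Fen1, the flap nuclease, went from 9.60 to 24.0 and from 4.44 to 10.7, 2.50-fold and 2.41-fold. Lig1, the ligase that seals the fragments, went from 9.77 to 23.5 and from 5.36 to 14.8, 2.41-fold and 2.77-fold.

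Genes that supply nucleotides rose in 4 of 5 cases in each stage. Rrm2, the S phase subunit of ribonucleotide reductase, went from 15.3 to 42.4 in anagen, 2.77-fold (log2 fold 1.47, SE 0.24), and from 6.89 to 18.1 in telogen, 2.63-fold (log2 fold 1.39, SE 0.34). Its partner Rrm1 rose 2.35-fold (24.7 to 58.1) and 2.30-fold (10.04 to 23.1). Tk1, the thymidine salvage kinase, rose 2.61-fold (19.7 to 51.4) and 4.05-fold (4.997 to 20.2), and its model overlaps Afmid. Tyms, which makes thymidylate anew, rose 2.19-fold (5.57 to 12.2) and 2.34-fold (2.95 to 6.92), and has a processed copy, Tyms-ps. Dut, which keeps uracil out of DNA, was 25.8 and 34.2 in anagen (q = 0.163) and 18.3 and 21.6 in telogen (q = 0.826), with no call.

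Among E2F and cyclin E genes, 4 of 6 rose in anagen and 3 of 5 tested rose in telogen. E2f1, an activator of S phase genes, went from 5.05 to 10.8 in anagen, 2.14-fold (log2 fold 1.10, SE 0.31), and from 1.27 to 7.26 in telogen, 5.71-fold (log2 fold 2.51, SE 0.51). E2f2, a second activator, was 4.54 and 4.44 in anagen (q = 0.972) and rose in telogen from 1.48 to 3.10 (q = 0.0179). E2f2 was the 1 gene of the 48 with a smaller value in anagen iKO than in Het cells. The repressors E2f7 and E2f8, which are themselves made in S phase, were low. E2f8 rose 2.62-fold (1.61 to 4.23) and 3.83-fold (0.403 to 1.54), and E2f7 rose in anagen from 0.239 to 0.603 (q = 0.0209). Ccne1, cyclin E1, rose 3.65-fold in anagen (1.38 to 5.03) and was 0.804 and 1.60 in telogen without a call (q = 0.309). Ccne2 was 3.50-fold and 5.13-fold higher in value without a call, with SEs of 1.09 and 1.81 on the log2 scale, and its model overlaps Ints8.

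Both genes that copy DNA methylation onto the new strand were higher in anagen. Uhrf1, which finds half-methylated sites at the fork, went from 12.1 to 36.5, 3.02-fold (log2 fold 1.59, SE 0.27), and in telogen from 2.72 to 16.2, 5.95-fold (log2 fold 2.57, SE 0.40). Dnmt1, the methyltransferase itself, rose 1.49-fold in anagen (18.2 to 27.2, q = 0.0169) and was 12.6 and 18.2 in telogen with no call (q = 0.215).

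Whether the knockout effect differed between stages was tested per gene, as a z of the difference of both log2 folds, adjusted over 12937 genes. None of the 47 genes tested passed an adjusted p of 0.05, where 0.657% of all genes did, and the calls in 1 stage alone are therefore not shown to be particular to it. By the unadjusted z test 3 of the 47 had a p below 0.05, all with the larger log2 fold in telogen. The share of all 12937 genes below that p was not counted, and no stage difference is read from these 3. The difference was 1.41 for E2f1 (SE 0.60), 1.10 for E2f2 (SE 0.50) and 0.98 for Uhrf1 (SE 0.49). The smallest adjusted p among the 47, that of E2f1, was 0.777. The telogen log2 fold was the larger in 20 genes and the smaller in 27, with a median difference of -0.04 and a median SE of 0.48. With that SE the test has little reach. In simulated data, 200 of 13031 genes were given a difference, and each gene kept its own SE. The test found 2.50% of them where the log2 folds differed by 1 and 72.5% where they differed by 2. These rates are for genes drawn from all tested ones, and were not measured for the 47 alone. Genotype, driver, drug, strain, sex and age differ between the stages as well, and cannot be told apart from stage here.

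**Figure D2:**
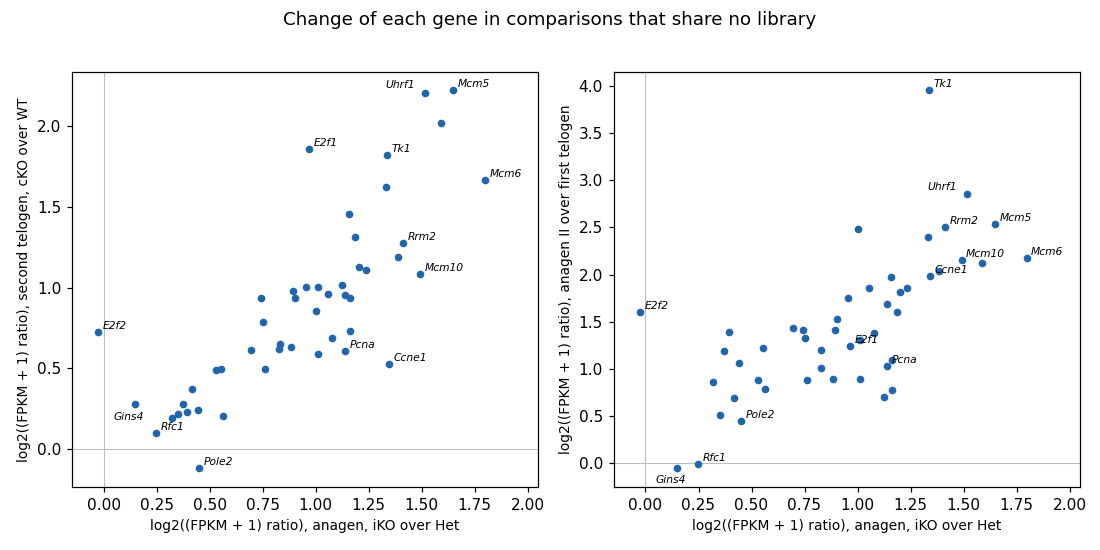
Each point is 1 of the 48 genes, at its log2((FPKM + 1) ratio) in anagen iKO over Het (horizontal axes) and in second telogen cKO over WT (left, vertical) or anagen II over first telogen (right, vertical). Genes with large values on 1 axis mostly have large values on the other, with Mcm5, Mcm6 and Uhrf1 toward the upper right and Gins4 and Rfc1 toward the lower left in both panels.

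The size of the change was ordered alike across genes in comparisons that share no library. Over the 48 genes, the log2((FPKM + 1) ratio) in anagen and in telogen had a Spearman correlation of 0.83 and a Pearson correlation of 0.80. The points share their genes, and thus length and level, and no p is given. At the high end of both were Mcm3, Mcm5, Mcm6 and Uhrf1, and at the low end Gins4, Rfc1, Orc6 and Rpa1.

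The joint table places all 7 groups on 1 scale. The median level of the 48 genes was 5.39 FPKM in telogen WT, 8.86 in telogen iKO and 14.7 in telogen cKO cells. It was 12.6 in anagen Het and 23.1 in anagen iKO cells. In the Shh-Het libraries it was 7.82 in first telogen and 23.8 in anagen II. Telogen WT cells had the lowest value of the 5 replicated groups for 43 genes, and anagen iKO cells the highest for 47, with E2f2 as the exception. Telogen cKO cells had a larger value than anagen Het cells for 40 of 48 genes. Over all 7 groups the ratio of the highest to the lowest value ran from 1.31 for Gins4 and 1.5 for Rfc1 to 44.6 for Mcm10 and 68.4 for E2f7, whose lowest value was 0.0285 FPKM. Genes with flat levels were thus found beside partners in the same complex that ranged widely, as with Gins4 and Gins2 or Orc6 and Orc1.

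**Figure D3:**
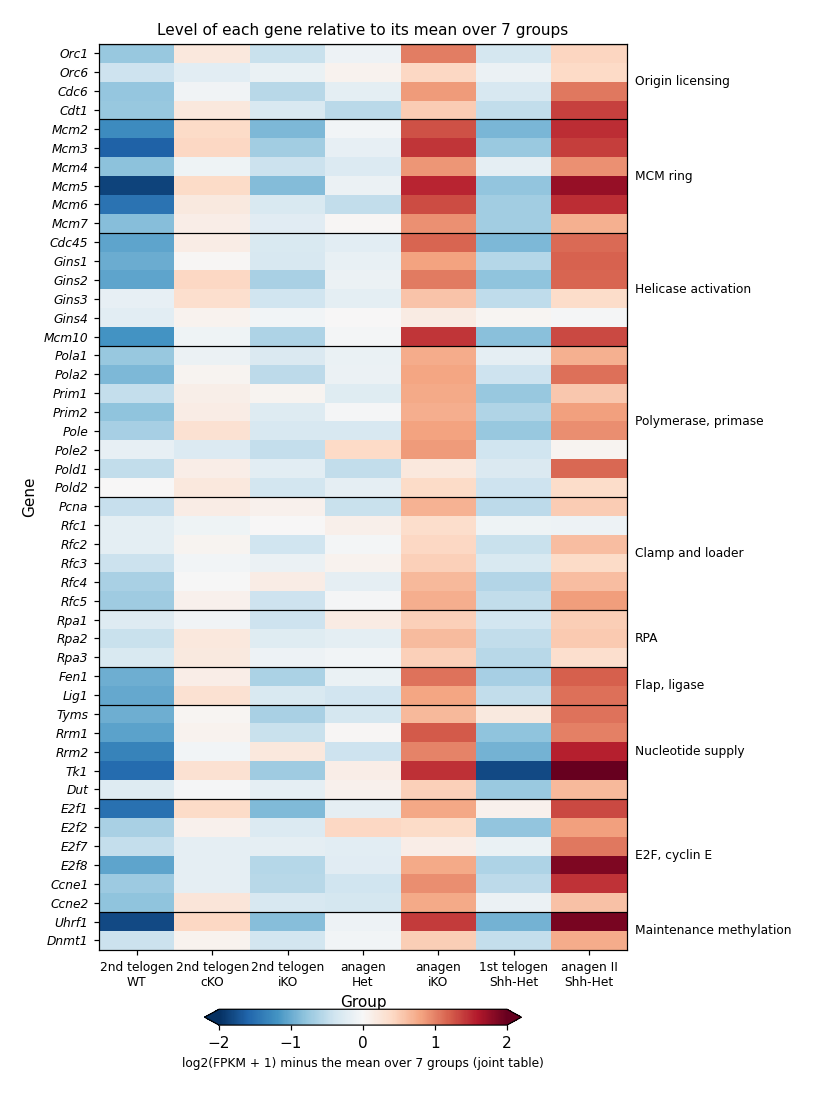
Level of each of the 48 genes in the 7 groups of the joint table, as log2(FPKM + 1) minus the gene's mean over the groups, with blue below and red above that mean. The anagen iKO and anagen II columns are red in most rows and the telogen WT column is mostly blue, while Gins4 and Rfc1 stay pale throughout.

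Telogen iKO cells lay between WT and cKO cells for 38 of 48 genes. Against WT, 17 of 47 tested genes were higher in iKO cells and 0 lower. By the same q 12.9% of all tested genes were called, 7.01% higher and 5.88% lower. A normal p of the statistic called 6 of the 47 higher, and its share over all genes was not counted. Cuffdiff's unadjusted p was below 0.05 for 0 lower genes, and 0 were lower by a normal p. The largest among well-expressed genes was Rrm2, at 7.17 in WT, 22.8 in iKO and 18.9 in cKO cells, 3.18-fold above WT. Mcm6 was 8.04, 19.4 and 27.8 in the same order, and 2.41-fold above WT in iKO cells. Mcm3, Mcm5 and Mcm7 also rose, by 2.20, 2.32 and 1.57-fold, while Mcm2 was 5.12 in WT and 6.86 in iKO cells (q = 0.180) and Mcm4 9.76 and 13.1 (q = 0.124). Pcna was 110 in WT, 159 in iKO and 168 in cKO cells, a rise of 1.45-fold in iKO cells (q = 0.0333). Those with a smaller value in iKO than in WT cells were Gins3, Pole2, Pold2, Rfc2 and Rpa1, without a call.

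Set directly beside cKO cells, telogen iKO cells had 17 of 47 genes lower (6 with a normal p) and 0 higher, where 14.9% of all tested genes were called, 7.35% lower and 7.53% higher. For the higher direction, Cuffdiff's unadjusted p was below 0.05 for 0 genes, and a normal p called 0. Orc1 was 3.09-fold, E2f1 2.96-fold, Uhrf1 2.64-fold, Mcm2 2.62-fold and Mcm5 2.57-fold lower in iKO cells. Rrm2 (q = 0.382) and Pcna (q = 0.841) were not called between these knockouts. Both comparisons of telogen iKO cells share libraries, so their counts are not independent of each other. Driver, drug, strain, age and sex differ between telogen iKO cells and the other telogen groups. They cannot be told apart from the timing of Foxc1 loss. Remaining Foxc1 differed as well, at 3.17 FPKM in telogen iKO and 1.66 in cKO cells (q = 0.00980), and its part was not tested. Between telogen iKO and WT cells 1 epidermal gene was higher and 1 lower (sum 3717 against 3239 FPKM), 2 of 5 tested fibroblast genes were lower (13.5 against 23.3), and 2 melanocyte genes (19.9 against 9.46) and 1 immune gene (90.3 against 66.0) were higher. Between iKO and cKO cells 2 epidermal genes (3717 against 5135), 1 fibroblast gene (13.5 against 74.6), 1 endothelial gene and 1 hair shaft gene were lower, and 2 immune genes and 1 melanocyte gene higher. What part they have was not tested.

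Within the iKO genotype, replication genes were lower in second telogen than in anagen. All 48 had a smaller value in telogen and 43 were called lower, 0 higher, where 33.2% of all tested genes were called, 15.5% lower and 17.6% higher. In the higher direction Cuffdiff's unadjusted p was below 0.05 for 0 genes and a normal p called 0. The median log2 fold was -1.23. The fold was 8.67 for Mcm10 (6.04 in anagen, 0.697 in telogen), 7.49 for Orc1, 5.85 for Mcm5 and 5.40 for Uhrf1. The 5 without a call were Gins4, Pold1, Rfc1, Rfc4 and Ccne2. Age, 30 against 60 days, goes with stage here. Remaining Foxc1 was also higher in telogen iKO cells, at 3.17 FPKM against 1.32 in anagen iKO cells (q = 0.00156). Markers of other cells moved too. All 6 epidermal genes were higher in telogen iKO cells (sum 984 to 3717 FPKM), and 4 of 6 immune genes were higher with 1 lower (22.2 to 90.3). Of 10 tested hair shaft and root sheath genes 6 were lower and 1 higher (140 to 65.8). Lower too were 3 of 6 fibroblast genes (54.7 to 13.5) and both tested endothelial ones (1.92 to 0.138, with Cdh5 at 0 in telogen). Of the stem cell markers, 2 of 8 were higher, Cd34 and Nfatc1, and 0 of 5 melanocyte genes were called (24.7 to 19.9). Their part in the replication gene differences was not tested.

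Between control groups, 26 of 47 tested genes had a higher level in the Het anagen group than in WT telogen cells (16 with a normal p) and 0 a lower one, where 25.4% of all tested genes were called, 11.9% higher and 13.5% lower. For lower genes, Cuffdiff's unadjusted p was below 0.05 in 0 cases and a normal p called 0. Mcm10 was 11.4-fold higher (0.135 to 1.54), Orc1 6.43-fold, Mcm5 4.11-fold and Uhrf1 4.03-fold. Pcna had 110 FPKM in both (q = 0.975). Genotype, driver, drug, strain, sex and age differ between these groups and cannot be told apart from stage. In the Het anagen group 5 of 6 epidermal genes were lower and 1 higher (sum 3239 to 552 FPKM), while 7 of 11 hair shaft and root sheath genes (55.3 to 185), 4 of 6 fibroblast genes (23.3 to 103), 3 of 3 tested endothelial genes (0.335 to 2.90) and 2 of 5 melanocyte genes (9.46 to 31.7) were higher. There 1 of 6 immune genes (66.0 to 12.3) and 3 of 7 tested stem cell markers were lower. The part of these markers was not tested.

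**Figure D4:**
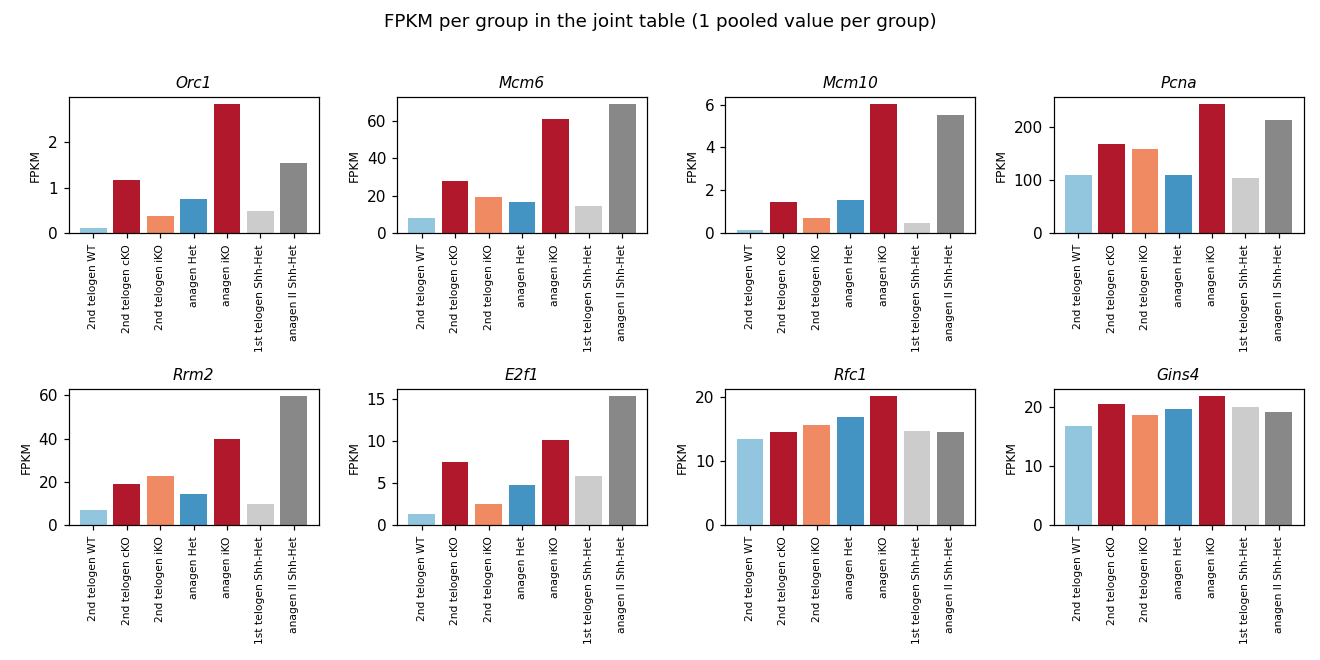
FPKM of 8 genes in the 7 groups of the joint table, as 1 pooled value per group with no error bar (1 library each for the Shh-Het groups). Orc1 and Mcm10 are near 0 in telogen WT cells at 0.116 and 0.135 FPKM and peak in anagen iKO cells at 2.84 and 6.04, while Rfc1 and Gins4 differ little among groups.

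A change with hair cycle stage, without a Foxc1 knockout, can be read from the Shh-Het pair, but age goes with stage there. Foxc1 itself was not constant, at 42.6 FPKM in first telogen and 22.1 in anagen II, and its part was not tested. With 1 library a stage, the pair has no replicate check and no p. Of the 48 genes, 39 were at least 2-fold higher in anagen II than in first telogen with at least 1 FPKM in the higher library, and 0 were lower by that rule. Over all genes with that level 30.6% passed it, 10.4% higher and 20.1% lower. The median fold of the 48 was 2.95. Tk1 had the largest fold, 4.13 FPKM in first telogen and 78.6 in anagen II, 19-fold, followed by Mcm10 at 11.9-fold (0.462 to 5.50), E2f8 at 10.5-fold and Uhrf1 at 8.27-fold. Gins4 and Rfc1 had the smallest, 0.961 and 0.989. Anagen II exceeded anagen iKO cells for 28 of the 48 genes, and first telogen exceeded telogen WT cells for 34. Genotype, strain, sex and age differ between the groups of these counts and cannot be told apart. Over the 48 genes the log2((FPKM + 1) ratio) of this pair had a Spearman correlation of 0.72 with that of the anagen knockout comparison and 0.75 with that of the telogen one, as a description across genes. Fibroblast markers differed between these 2 libraries, with 6 genes summing to 2107 FPKM in first telogen and 1025 in anagen II. In the same order, 6 immune markers summed to 259 and 25.7. Endothelial sums were 44.3 and 4.73, and epidermal ones 1313 and 521. Higher in anagen II were the melanocyte sum (13.4 to 51.3) and the hair shaft and root sheath sum (108 to 182). Of 9 stem cell markers, 4 were at least 2-fold lower in anagen II and 0 higher. The part of these markers in the differences was not tested.

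Of 65 further replication genes on lists beside the 48, 64 were in the tables. In anagen 30 of them rose and 0 fell, and no p of Cuffdiff was below 0.05 in the lower direction without adjustment, nor was there a call by a normal p. In telogen 14 rose and 1 fell, or 23 and 1 in the joint table. Over all tested genes 10.3% were called in anagen and 6.62% in telogen, or 12.2% in telogen in the joint table. By function, genes of origin firing rose in 5 of 8 cases in anagen and 3 of 8 in telogen, chromatin assembly genes in 6 of 8 and 4 of 8, and further fork genes in 10 of 17 and 5 of 17. Fewer were called among the other lists: origin licensing genes rose in 2 of 9 and 1 of 9 cases, nucleotide supply genes in 3 of 9 and 1 of 9, and E2F and Rb genes in 4 of 13 in anagen, with 0 higher and 1 lower of 13 in telogen. Ranked by fold, with genes under 1 FPKM in a group set aside, the anagen genes were led by Pclaf, a Pcna partner, at 4.01-fold (7.51 to 30.1). Asf1b, a histone chaperone, followed at 3.92-fold (4.11 to 16.1), then Dbf4, which activates the firing kinase, at 3.56-fold (3.88 to 13.8). Ccna2, cyclin A2, rose 3.38-fold in anagen (13.3 to 44.9) and 4.83-fold in telogen (2.35 to 11.4). The origin recognition subunits Orc2, Orc3, Orc4 and Orc5 were not called in either stage, unlike Orc1. Gmnn, geminin, which blocks relicensing, rose 2.63-fold (11.2 to 29.4) and 4.28-fold (2.09 to 8.96).

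The gene that fell in telogen was Cdkn1a, the kinase inhibitor p21 that holds cells out of S phase. Its FPKM was 185 in WT against 88.9 in cKO cells, a 2.08-fold drop (q = 0.00159). That call was lost with a normal p of the statistic (adjusted value 0.0686), and kept with it in the joint table (0.00585). In the joint table Cdkn1a was 192 in WT, 92.7 in cKO and 285 in telogen iKO cells, and 45.7 in Het and 43.4 in iKO anagen cells. In telogen iKO cells Cdkn1a was called 1.48-fold higher than in WT cells (q = 0.0480), a call also lost with a normal p (0.471). Its level in the telogen knockouts was 3.07-fold apart (q = 0.000444, and 1.6e-05 with a normal p). In anagen it was not called (q = 0.900).

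Markers of other cells moved with some comparisons. In anagen, 7 of 11 hair shaft and root sheath genes measured fell in iKO cells (summed level 196 to 148 FPKM), 3 of 6 fibroblast genes fell (109 to 58.0), and Cd34 and Nfatc1, both stem cell markers, fell from 432 to 244 and from 41.9 to 28.2. The epidermal genes Krt1 and Krtdap rose (6-gene sum 585 to 1043), and Cd74 rose among immune genes (sum 13.1 to 23.6). Melanocyte genes summed to 33.6 and 26.2 and endothelial ones to 3.07 and 2.03, where Vwf fell. In telogen the 2-group table called 1 gene in each of 3 lists. Krt79 rose among 6 epidermal genes (sum 3114 to 4928), Col1a1 among 6 fibroblast genes (22.5 to 71.6) and Krt73 among 11 hair shaft genes (53.2 to 69.8, with Krt81 at 0 in both groups and Krt33b at 0 in WT). Immune (63.5 and 73.3), melanocyte (9.11 and 10.7) and endothelial (0.321 and 0.466) sums held no called gene. Of 7 tested stem cell markers 0 were called there, with Cd34 at 848 in WT and 385 FPKM in cKO cells (q = 0.120) and Lhx2 at 217 and 143 (q = 0.220). The joint table called both lower, Cd34 from 883 to 401 and Lhx2 from 226 to 149. The part of these cells in the replication gene differences was not tested.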

How the data were processed

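Sorted cells were lysed in Trizol-LS and sequenced after TruSeq mRNA preparation, per the labels' protocols. TopHat, Cufflinks and Cuffdiff were used with build mm9, versions unnamed, per the submitters' processing notes. The authors' FPKM values are pooled, 1 for each group and gene, in 3 tables scaled separately: joint values differ from the 2-group ones by -0.08 (anagen) and 0.06 (telogen) on the log2 scale, so levels are compared within a table. The log2 fold, the test statistic (a score), the p-value and the q-value are the authors' own, per the file headers. The smallest deposited p-value is 5e-05. The sources used here do not say how replicate error entered that test.

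Anagen and telogen knockouts were compared in their 2-group tables and all other pairs in the joint table of 21 comparisons, with calls at a deposited q below 0.05 over all genes. SE was the log2 fold over the statistic. Stage differences were a two-sided z test with Benjamini-Hochberg adjustment, without genes whose p did not follow the statistic, and were tested on simulated data of 13031 genes. Medians are of the deposited log2 folds unless said to be on the log2(FPKM + 1) scale. The anagen II pair has 1 library a stage and folds only. The members and gene lists were chosen with earlier results of these data known. All 48 members could be named, and of the other replication genes those with the 6 largest folds per comparison, fallen genes and whole complexes. Overlapping models or processed copies affect 11 members: Mcm7, Gins2, Pold1, Pold2, Pcna, Rfc4, Lig1, Tyms, Tk1, Ccne2 and Dnmt1. Alternatives were other thresholds, pseudocounts, p-values, tables and minimum levels, and leaving out those 11 members, which was chosen after seeing the data. Scripts used Python 3.11.15, pandas 2.3.3, numpy 2.4.6 and scipy 1.17.1.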

Additional observations from a re-analysis of the deposited data

How the results depend on the processing

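No paired analysis was possible because the deposited tables hold 1 pooled value per group and none per library, and for the same reason no library could be left out. The called members all lay in the reported direction under each alternative run. That is no independent check: other thresholds, p-values and minimum levels reuse the same deposited log2 folds, so direction could not change. The joint table rests on the same libraries. Among the other replication genes in telogen, the 14 higher and 1 lower became 11 and 0 with a normal p. With q below 0.01, the telogen cKO count fell from 27 to 17, telogen iKO against WT from 17 to 9, and telogen iKO against cKO from 17 to 11. With a normal p of the statistic, the latter 2 counts were 6 and 6, and Het against WT was 16 instead of 26. The anagen count of 35 was 31 with q below 0.01 and 29 with a normal p. Without members that overlap other models or have copies, 27 of 37 tested were called in anagen and 23 of 36 in telogen cKO cells. The telogen cKO count was 18 with a normal p and 32 in the joint table, which added Prim1, Pold1, Pcna, Rpa2 and Dnmt1. Of the other replication genes, 24 instead of 15 were called in telogen in the joint table. The median log2 change was 0.64 instead of 0.98 in anagen and 0.48 instead of 0.82 in telogen cKO cells with a pseudocount of 5. For anagen II it was 1.38, with 1.51 at a pseudocount of 0.1 and 1.00 at 5. The stage difference was 0 genes in each setting. Without counts in the files, what depth limits could not be measured.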
